A study of Mus musculus with 4 samples.

Results

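The mitochondrial solute carrier family 25 was followed in the adrenal gland of male mice, in animals with and without the V1a vasopressin receptor. Members were all genes of the platform annotation with a symbol beginning in Slc25a that are read by probe sets naming 1 gene only, 44 of the 18193 genes named in this way. The rule reads the symbol alone, not a measured value. Proteins of this family sit, with few exceptions, in the inner mitochondrial membrane, where each moves a small set of metabolites, nucleotides, cofactors or ions between cytosol and matrix. They are encoded in the nucleus and mostly imported without a cleaved presequence through dedicated translocases. The adrenal cortex depends on mitochondria for the first and the last steps of corticosteroid synthesis, and these steps draw on reducing power that carboxylate and amino acid carriers help to supply.

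Adrenal RNA of 4 samples, each on 1 short-oligonucleotide array (Mouse Genome 430 2.0), was compared: 2 wild-type samples and 2 V1a knockout samples (genotype V1a_KO), all from males at 2 months of age. The sources used here do not give the strain, the deleted part of the receptor gene or whether the samples came from separate animals, so a p-value covers the spread of these 4 samples alone, and that spread may be technical. With n = 2 per genotype throughout, the number of arrays limits the precision. Both probe sets of Avpr1a, the receptor's own gene, lay between 2.31 and 2.60 on all arrays, below the filter, and so do not check the genotype labels. Values are log2 expression units, in which 1 unit is a 2-fold step, and differences are knockout minus wild type. The lowest value of the arrays was 2.30, a shared floor.

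Wild-type array 1 stood apart from the other 3, with correlations of 0.919 to 0.924 across tested probe sets against 0.974 to 0.986 among the others. Markers of cortex and medulla were bright on every array, with medians of 13.5 to 13.8 over 8 cortical genes. The median of 8 chromaffin genes was 12.6 and 11.2 in wild type against 11.9 and 10.8 in the knockout, higher on the array numbered 1 in both genotypes. None of 7 skeletal muscle markers reached the filter, with a median of 2.32 on each array. Summed markers of liver, erythroid cells, brown fat and kidney were highest on wild-type array 1. The median of 6 liver markers was 6.16 there and 2.46 to 2.58 on the others, and 4 erythroid markers summed to 10.4 log2 units there and 7.92 to 8.31 elsewhere. One of the 4, Hba-a1, was at the floor of 2.30 throughout. Markers were read only by probe sets naming 1 gene, so this reading does not show that globin RNA was absent. The summed level of 7 brown fat markers was 12.3 and 10.5 log2 units in wild type against 9.78 and 9.95 in the knockout, with 4 of the 7 above the filter. Of 6 kidney markers, Aqp1 and Fxyd2 passed the filter, and the 6 summed to 9.01 log2 units on the first wild-type array but 7.42 to 8.29 on the rest. Their median was not highest there, at 2.76 against 2.68 to 2.84 on the rest. Summed markers of fat of either kind and of macrophages were highest on knockout array 2. They stood at 13.6 and 12.7 log2 units on it, against 13.3 and 11.8 on wild-type array 1. The part of these tissues in the results that follow was not tested. In whole glands, fewer cells of a type and less RNA per cell cannot be told apart.

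Of the 44 members, 34 passed the filter of 4 log2 units on at least 2 arrays, and all 34 did so on all 4 arrays, so that none entered through 1 genotype alone. Over all genes, 10110 of 18193 had such a probe set. The 10 untested members were Slc25a2, Slc25a18, Slc25a27, Slc25a31, Slc25a34, Slc25a41, Slc25a47, Slc25a48, Slc25a53 and Slc25a54. Their probe sets lay between 2.30 and 3.51 on every array, except for 1 reading of 4.45 for Slc25a47 on wild-type array 1. They include Slc25a31, the ADP/ATP carrier of the testis, and Slc25a27, a relative of the uncoupling proteins known from brain.

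The probe set with the highest mean stood for each member. Slc25a3, Slc25a39, Slc25a4, Slc25a5 and Slc25a51 gave the highest signals of the family and were the 5 members in the upper 10% of tested genes by signal. Slc25a3, which brings phosphate into the matrix for ATP synthesis, gave wild-type readings of 13.14 and 13.10 against knockout readings of 13.10 and 13.17, rank 72 of 10110 genes. Slc25a39, a carrier needed for mitochondrial glutathione, gave 13.27 and 12.86 in wild type against 12.76 and 12.79 in the knockout. Slc25a3 was first in the family on 3 arrays and Slc25a39 on wild-type array 1. In these genes the arrays lay close together, apart from the high first wild-type reading of Slc25a39. Slc25a4, the ADP/ATP carrier of heart and muscle, gave 12.09 and 11.70 in wild type against 11.94 and 11.83 in the knockout. Slc25a5, the ADP/ATP carrier of dividing and many other cells, gave 11.99 and 11.69 against 11.87 and 11.79. Slc25a51, the carrier of NAD+, gave 10.57 and 10.61 in wild type against 10.56 and 10.57 in the knockout. Members 3, 4 and 5 held their places on all 4 arrays. Slc25a4 and Slc25a5 differed by less than the spread between arrays, and the order of signals is not an order of transcript abundance, since probe sets bind with different strength: the tested probe sets of Slc25a5 alone had means between 8.02 and 11.84 log2 units. The median member stood at the 62.6th percentile of tested genes.

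**Figure D1:**
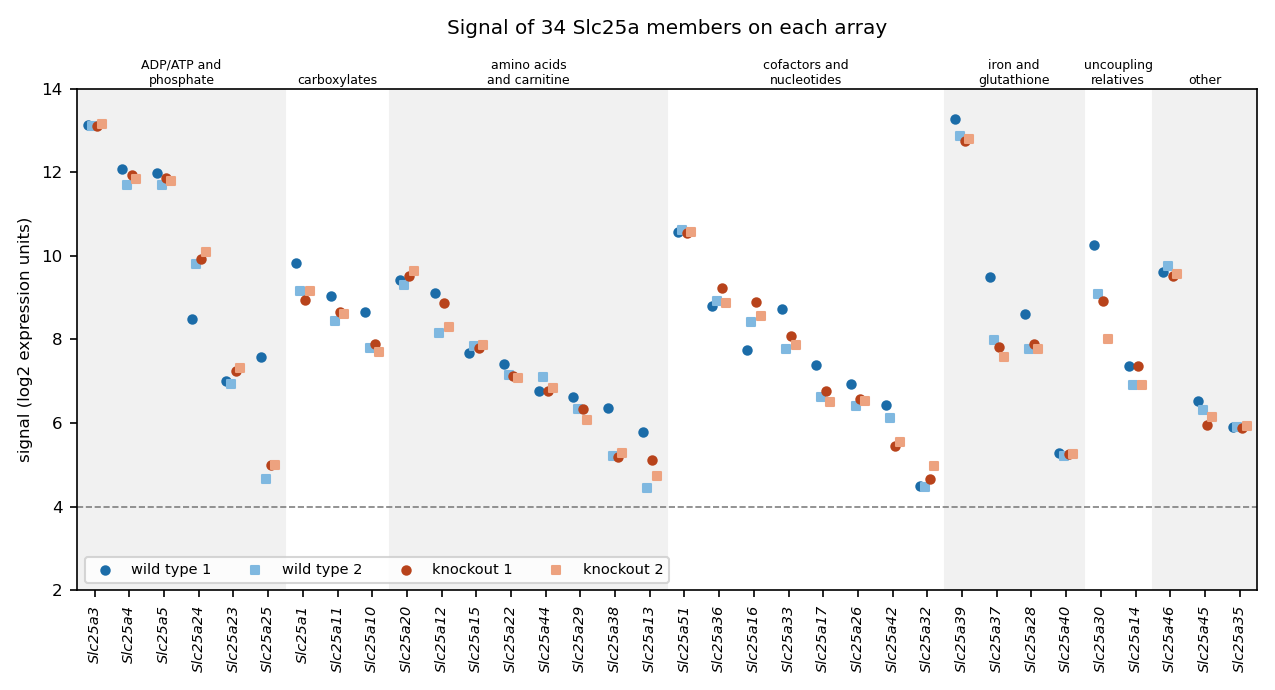
Signal in log2 expression units (vertical axis) of the 34 tested members, grouped by what they carry and ordered by mean within a group; each point is 1 array, blue for wild type and orange for knockout, and the dashed line is the filter at 4. In 30 of the 34 members at least 3 arrays lie within 0.5 log2 units, and wild-type array 1 (dark blue) is the highest in 22.

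Between genotypes, no member passed an adjusted threshold of 0.05 in limma (0 of 34, smallest adjusted p = 0.794), and neither did any of the 10110 genes (0%). At an unadjusted p under 0.05 there was 1 member of 34, Slc25a42, against 5.06% of all genes and 5.14% of all probe sets. It lay lower in the knockout, as did 2.93% of all genes at that threshold, while 0 members and 2.14% of all genes lay higher. With p under 0.01 and a 2-fold difference there were 0 members, against 0.692% of all genes. By sign, 24 members lay lower in the knockout, 9 higher and Slc25a35 at 0.00, against 55.9% of all genes lower. The median difference was -0.13 (quartiles -0.37 and 0.01), against -0.05 over all genes. The genotypes did not overlap in 14 members, 9 of them lower and 5 higher in the knockout, against 37.7% of all genes (20.5% lower and 17.1% higher). The surplus of lower values depended on wild-type array 1. Without wild-type array 1, 12 of 34 members (35.3%) lay lower, against 42.9% of all genes. The median was then 0.04, beside 0.04 over all genes. Of the 24 lower members 13 turned higher, as did 2215 of the 5652 lower genes among all 10110. Without wild-type array 2, 26 members (76.5%) lay lower, against 61.5% of all genes, and the median was -0.34, beside -0.15 over all genes. In that setting 14 members (41.2%) had an unadjusted p under 0.05, near the 38.1% of all genes, with 0 members past adjustment. Wild-type array 1 was the highest of the 4 arrays in 22 of 34 members, against 49.8% of all genes, and lay above wild-type array 2 by a median of 0.30, against 0.20 over all genes.

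**Figure D2:**
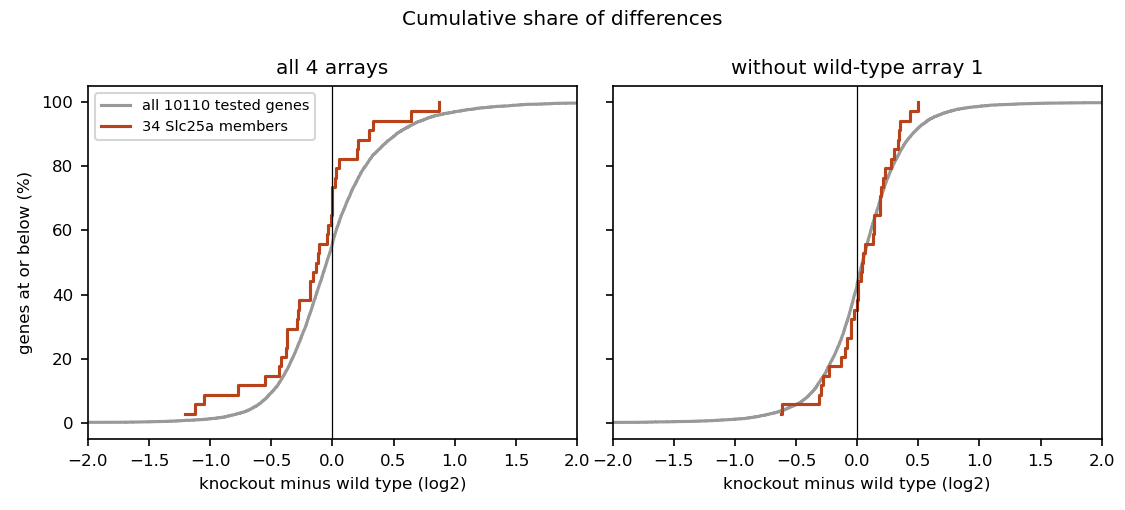
Share of genes (vertical axis, percent) whose difference, knockout minus wild type in log2 units (horizontal axis), is at or below a value, for the 34 members (orange) and all 10110 tested genes (grey). With all 4 arrays the members' line runs to the left of the grey one; without wild-type array 1 both cross the middle at 0.04. Differences beyond 2 log2 units are not drawn.

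Slc25a42, which exchanges coenzyme A for adenine nucleotides across the inner membrane, gave the smallest p of the family. Its readings were 6.42 and 6.13 in wild type against 5.45 and 5.56 in the knockout. Both knockout arrays lay below both wild-type arrays, and the arrays of 1 genotype lay closer to each other than to those of the other. The difference was -0.77 (SE 0.19, 1.71-fold lower), with an adjusted p = 0.794 in limma, so it did not pass over all probe sets (unadjusted p = 0.0181). It was -0.63 without wild-type array 1 and -0.92 without wild-type array 2. Leaving out a knockout array kept the sign (-0.72 and -0.83) but not the unadjusted p under 0.05, which was 0.131 without knockout array 1. Slc25a42 has 1 tested probe set, and its other one lay near the floor, at 2.32.

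Slc25a30, a relative of the uncoupling proteins first described in kidney, had the lowest difference of the family. It gave 10.27 and 9.08 in wild type against 8.93 and 8.02 in the knockout. The genotypes did not overlap, but the gap between wild-type array 2 and knockout array 1 was narrower than the gap inside either genotype. The difference was -1.21 (SE 0.57, 2.31-fold lower, limma adjusted p = 0.794), and -0.61 without wild-type array 1. Its other 2 tested probe sets followed the same course over the 4 arrays, with differences of -1.30 (SE 0.51) and -1.41 (SE 0.74), and the arrays stood in the same order on all 3. Within each genotype the array numbered 1 was the higher, as it was for the chromaffin median, and the part of medullary content in these readings was not tested. With the replicate number as a block, the p of Slc25a30 was 0.0105 before adjustment and 0.797 after it.

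Slc25a37, mitoferrin 1, imports iron for heme and is best known from red cell precursors. It gave 9.50 and 7.99 in wild type against 7.81 and 7.58 in the knockout. Wild-type array 1 was high and the other 3 arrays were close together. The difference of -1.05 (SE 0.58, 2.07-fold lower, limma adjusted p = 0.794) was -0.30 without that array. Alas2, the erythroid enzyme that opens heme synthesis, stood at 9.46 on that array but 4.67 to 5.30 on the rest, and its part in the reading of Slc25a37 was not tested. Slc25a28, mitoferrin 2, which supplies iron in other cells, differed by -0.37, and by 0.05 without wild-type array 1.

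Higher readings in the knockout were led by Slc25a24, a calcium-regulated carrier that exchanges ATP-Mg for phosphate. It gave 8.48 and 9.80 in wild type against 9.92 and 10.10 in the knockout. Here wild-type array 1 was the low one. The difference was 0.87 (SE 0.51, 1.83-fold higher, limma adjusted p = 0.794), and 0.21 without that array. The second probe set of Slc25a24 differed by 0.66 (SE 0.40). Slc25a16, a carrier linked to coenzyme A supply in mitochondria, gave 7.74 and 8.43 in wild type against 8.89 and 8.56 in the knockout. The genotypes did not overlap, with wild-type array 2 and knockout array 2 nearly level. The difference was 0.64 (SE 0.32, 1.56-fold higher, limma adjusted p = 0.794), and 0.30 without wild-type array 1. Slc25a16 and Slc25a42 are both tied to coenzyme A and lay on opposite sides of 0.

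**Figure D3:**
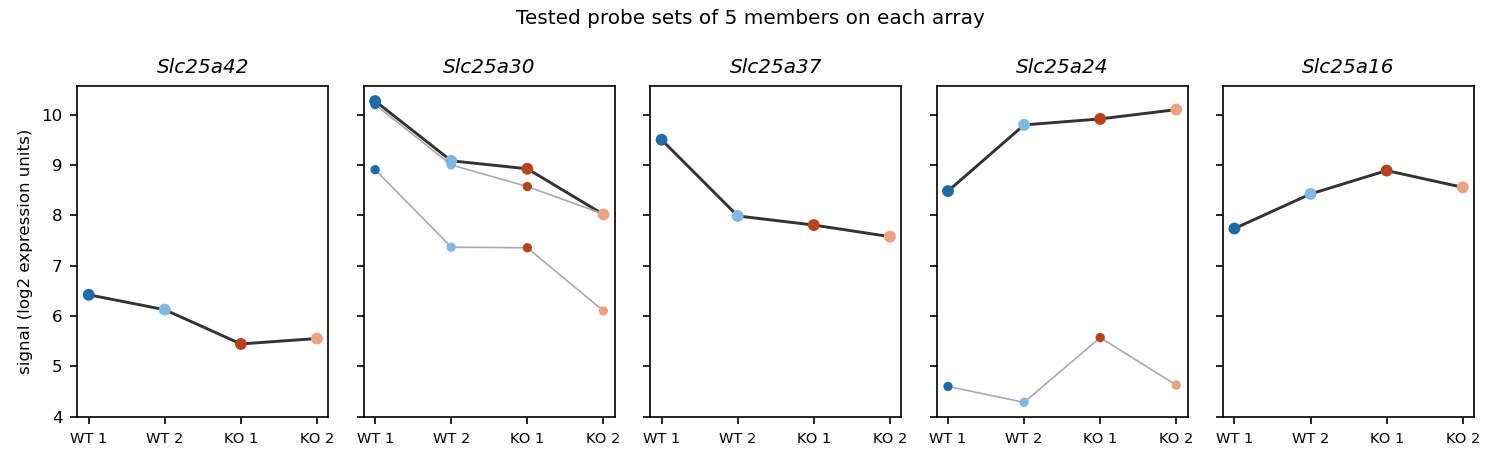
Signal in log2 expression units (vertical axis) of the tested probe sets of 5 members on the 4 arrays (WT, wild type; KO, knockout). Each line joins the readings of 1 probe set and the thick line is the one that stands for the gene; the arrays have no order in time. Slc25a42 steps between the genotypes, the 3 lines of Slc25a30 put the arrays in the same order, and wild-type array 1 stands off in Slc25a37 and on the thick line of Slc25a24.

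The sequence upstream of the start is shown for Slc25a42 and Slc25a30, the 2 members with the largest differences when wild-type array 1 was left out, and for Slc25a16 as a member on the other side. Each is the 250 bases before an annotated transcript start, 5′ to 3′ on the gene's strand, from RefSeq (GRCm38.p6), with CCAAT boxes and GC boxes (CCAAT and GGGCGG, on either strand) in capitals. The windows are chr8:70212282-70212531 on the minus strand, chr14:75787038-75787287 on the minus strand and chr10:62920383-62920632 on the plus strand.
Slc25a42: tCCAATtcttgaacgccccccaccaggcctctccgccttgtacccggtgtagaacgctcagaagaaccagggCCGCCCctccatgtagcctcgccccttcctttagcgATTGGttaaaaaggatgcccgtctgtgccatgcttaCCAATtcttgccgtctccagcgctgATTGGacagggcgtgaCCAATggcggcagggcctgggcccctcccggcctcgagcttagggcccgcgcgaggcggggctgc
Slc25a30: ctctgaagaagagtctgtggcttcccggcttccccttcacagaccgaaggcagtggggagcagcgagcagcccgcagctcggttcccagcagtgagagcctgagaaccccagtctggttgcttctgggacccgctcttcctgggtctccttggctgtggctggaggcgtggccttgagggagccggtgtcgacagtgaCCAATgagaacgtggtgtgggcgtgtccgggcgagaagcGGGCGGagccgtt
Slc25a16: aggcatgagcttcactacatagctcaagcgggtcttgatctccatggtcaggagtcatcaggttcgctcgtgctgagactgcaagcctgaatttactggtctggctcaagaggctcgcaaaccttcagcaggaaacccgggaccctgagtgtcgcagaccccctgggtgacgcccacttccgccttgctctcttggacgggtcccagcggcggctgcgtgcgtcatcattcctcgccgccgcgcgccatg
The Slc25a42 window held 5 CCAAT boxes and 1 GC box, the Slc25a30 window 1 of each, and the Slc25a16 window 0 of either. The window of Slc25a24, the member with the highest difference (0.87), is not printed and held 0 CCAAT boxes and 2 GC boxes. Among these windows, CCAAT boxes were thus in those of the lower members only, while GC boxes were on both sides. The windows are few and were picked by the members' differences, and a link between boxes and direction was not tested. Of the 34 tested members, 27 had an entry, with 35 windows in all, some of them overlapping. A CCAAT box was in 48.6% of these windows against 33.8% of all 32851 windows, and a GC box in 77.1% against 32.7%. The member windows are of genes that passed the filter, while the 32851 were taken without it. The shares are thus of unlike sets and do not show an excess in this family. The E-box CACGTG was in 20.0% against 6.02%, and the cAMP response element TGACGTCA in 2 of 35 against 1.55%. The nuclear receptor site AAGGTCA, bound by SF-1 and by estrogen-related receptors, was in 0 of 35 windows against 4.08% of all. Both strands were searched, and none of these motifs lies within another. A match is a string of letters, not a measured site.

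By role, the carriers of adenine nucleotides and phosphate had 3 of 6 tested members higher and 3 lower, with a median of 0.01. Slc25a3 differed by 0.02 (SE 0.16), Slc25a4 by -0.01 (SE 0.21) and Slc25a5 by -0.01 (SE 0.19). The signs of Slc25a4 and Slc25a5 turned with quantile normalization (0.03 and 0.02) and with median centring (0.02 and 0.01). Slc25a23, another ATP-Mg carrier, gave 7.02 and 6.95 in wild type against 7.26 and 7.31 in the knockout. It differed by 0.30 (SE 0.16), and by 0.34 without wild-type array 1. Slc25a25, the third of these carriers, stood at 7.59 on wild-type array 1 but 4.66 to 5.01 on the rest. Its difference of -1.12 (SE 1.08) turned to 0.34 without that array. Its second tested probe set, of nearly the same mean, gave 5.59 and 5.50 in wild type against 5.32 and 5.50 in the knockout. It differed by -0.14 (SE 0.17), with no high reading on wild-type array 1. The values of Slc25a23 and Slc25a25 are given because of how they looked, outside the naming rule. Together, Slc25a30, Slc25a25 and Slc25a37 were the 3 members at least 2-fold lower (8.82% of 34, against 1.34% of all genes). None were at least 2-fold higher (0 of 34, against 3.03% of all genes), and 4.36% of all genes were 2-fold apart in either direction. Without wild-type array 1 0 members and 2.57% of all genes were 2-fold apart, with a largest size of 0.63.

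Probe sets of the ADP/ATP carriers disagreed with each other on wild-type array 1. Slc25a4 had 3 tested probe sets, which differed by -0.01, 0.74 and -0.06. The middle one stood at 10.69 on wild-type array 1 but 11.82 to 12.03 on the rest. Slc25a5 had 8, of which 4 lay between -0.18 and -0.01 and the other 4 at 0.15, 0.38, 0.83 and 2.30. The one at 2.30 stood at 6.90 on wild-type array 1 but 10.76, 11.14 and 11.13 on the rest. Wild-type array 1 was the highest array on the 4 probe sets of Slc25a5 below 0 and the lowest on the 4 above 0. Many of these probe sets carry the suffix _x_at or _a_at and can read near-identical copies or several transcripts, so they do not separate Slc25a5 from its relatives with certainty. In 7 of 15 members with more than 1 tested probe set the signs were mixed, near the 48.3% of all such genes. Slc25a39 was among them, with 3 probe sets at -0.29 to -0.38 and 1 at 0.50.

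**Figure D4:**
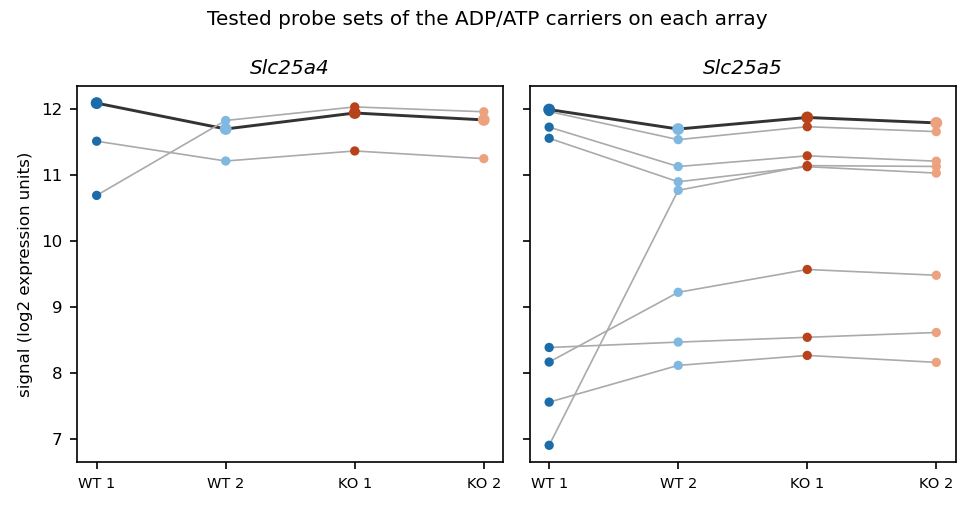
Signal in log2 expression units (vertical axis) of the 3 tested probe sets of Slc25a4 and the 8 of Slc25a5 on the 4 arrays (WT, wild type; KO, knockout); each line is 1 probe set, the thick one stands for the gene, and the arrays have no order in time. The lines run level over 3 arrays and part on wild-type array 1, where 1 probe set of Slc25a5 falls to 6.90.

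All 3 tested carriers of di- and tricarboxylates lay lower, with a median of -0.42. Slc25a1 exports citrate for lipid and sterol synthesis, Slc25a10 exchanges dicarboxylates for phosphate, and Slc25a11 exchanges oxoglutarate for malate. They differed by -0.44 (SE 0.30), -0.42 (SE 0.36) and -0.11 (SE 0.27). In each, wild-type array 1 was the highest, and without it the differences were -0.10, 0.01 and 0.19. None of the 3 kept the genotypes apart.

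Of 8 tested carriers of amino acids and carnitine, 6 lay lower and 2 higher, with a median of -0.16. The aspartate/glutamate carriers of the malate-aspartate shuttle, Slc25a12 and Slc25a13, differed by -0.05 (SE 0.44) and -0.18 (SE 0.54), and by 0.43 and 0.49 without wild-type array 1. Slc25a20, which brings acylcarnitines to fatty acid oxidation, gave 9.43 and 9.30 in wild type against 9.51 and 9.64 in the knockout. It differed by 0.21 (SE 0.17). Its second probe set gave -0.27. Slc25a38, which takes in glycine for heme synthesis, differed by -0.55 (SE 0.46), and by 0.03 without wild-type array 1. The glutamate carrier Slc25a22, the basic amino acid carrier Slc25a29, the branched-chain amino acid carrier Slc25a44 and the ornithine carrier Slc25a15 differed by -0.18, -0.28, -0.14 and 0.06, and by -0.05, -0.13, -0.31 and -0.03 without wild-type array 1. The 4 other tested probe sets of Slc25a29 ran from -0.55 to 0.49.

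Beside Slc25a42, Slc25a16 and Slc25a51, the carriers of cofactors and nucleotides were the pyrimidine nucleotide carriers Slc25a33 and Slc25a36, the peroxisomal Slc25a17, the S-adenosylmethionine carrier Slc25a26 and the folate and flavin carrier Slc25a32. They differed by -0.27, 0.20, -0.37, -0.12 and 0.34. Without wild-type array 1 these values were 0.20, 0.13, 0.01, 0.14 and 0.35, so that the 3 negative ones turned positive. The other 2 tested probe sets of Slc25a36 gave -0.14 and -0.35, against the sign of the first. The second tested probe set of Slc25a32 differed by 0.06 (SE 0.54). It gave 3.31 and 4.73 in wild type against 4.08 and 4.08 in the knockout, so that wild-type array 2 lay above the knockout. In this group 5 of 8 lay lower, with a median of -0.08. Slc25a51 differed by -0.03 (SE 0.15). Slc25a39 differed by -0.29 (SE 0.22) and its relative Slc25a40 by 0.03 (SE 0.16). Slc25a14, an uncoupling protein relative known from brain, differed by 0.00 (SE 0.28). Slc25a46, an outer membrane protein of mitochondrial shape, and the orphan Slc25a45 differed by -0.16 (SE 0.16) and -0.38 (SE 0.18), without overlap of the genotypes.

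**Figure D5:**
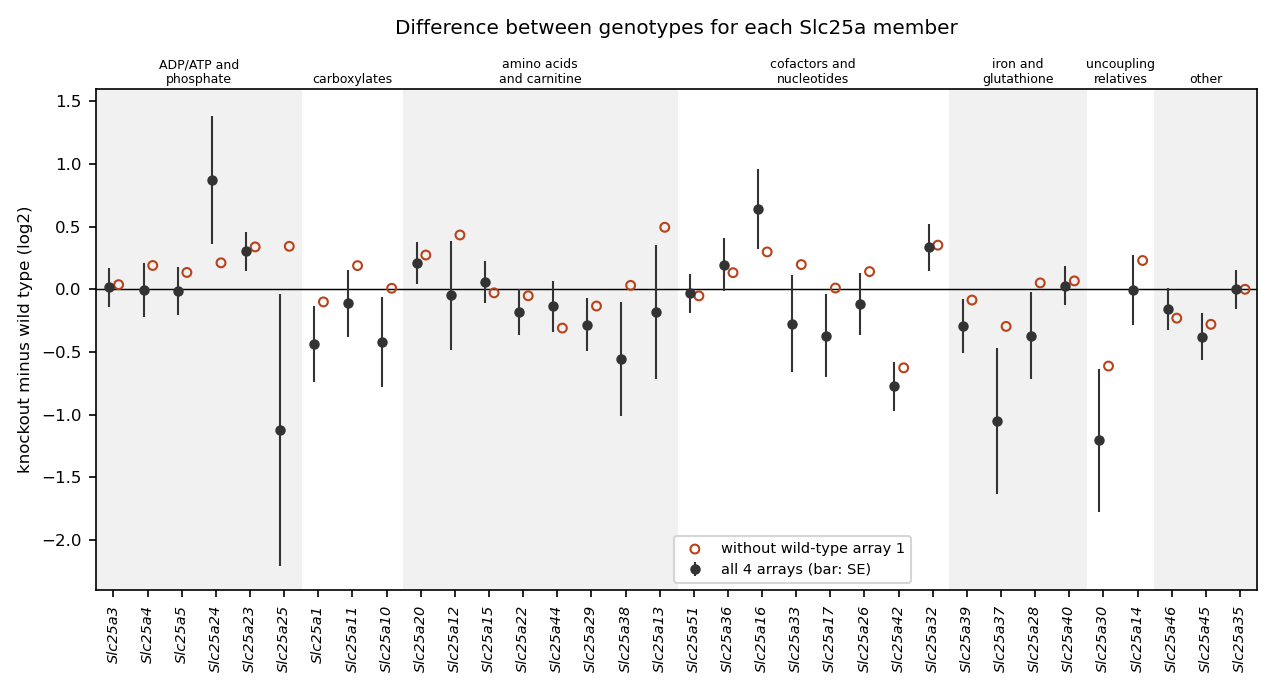
Difference between the genotypes, knockout minus wild type in log2 units (vertical axis), for each of the 34 tested members by role; filled points use all 4 arrays with limma's moderated SE as bar (n = 2 per genotype), and open points leave out wild-type array 1. Slc25a42 and Slc25a30 remain at -0.63 and -0.61 in the open points, while Slc25a25, Slc25a37, Slc25a24 and the carboxylate carriers move towards or past 0.

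Other genes of mitochondrial transport gave 0 adjusted calls in limma. The uncoupling protein Ucp1, a family member under another symbol, gave 10.05 and 7.24 in wild type against 2.80 and 5.91 in the knockout (difference -4.29, SE 1.54, unadjusted p = 0.0535). The brown fat marker Cidea gave 9.78 and 6.78 against 3.37 and 6.06. Cox8b, also from that marker list, gave 11.33 and 10.07 against 9.38 and 9.30. Cox7a1 from the same list overlapped, at 8.37 and 7.18 against 7.51 and 7.73. The part of brown fat in the Ucp1 readings was not tested. Ucp1 is itself the defining marker of brown fat. Mtch1 and Mtch2, outer membrane relatives of the family, differed by -0.26 and 0.11, or 0.06 and 0.23 without wild-type array 1, and Ucp3 lay near the floor. Of 14 tested genes that import carriers into the inner membrane, 8 lay lower and 6 higher, with a median of -0.03. Timm8b, a small chaperone of the intermembrane space, passed the unadjusted threshold at -0.68 (SE 0.19, unadjusted p = 0.0279). Timm22, the pore through which carriers are inserted, differed by -0.40 (SE 0.16). Of 14 other transporters of the mitochondrial membranes, 9 lay lower and 5 higher, with a median of -0.08. Abcb10, an inner membrane transporter tied to heme synthesis, gave 2.70 and 3.85 in wild type against 5.78 and 5.02 in the knockout (difference 2.13, SE 0.53, unadjusted p = 0.0178), but it passed the filter through the knockout arrays alone and so had to differ. Of 14 tested enzymes that act on carrier substrates, 8 were higher in the knockout and 6 lower (median 0.02), 0 of them at an unadjusted p under 0.05. The smallest p values there belonged to Mdh2 at 0.67 and Crat at -0.58, which were 0.10 and -0.09 without wild-type array 1.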

How the data were processed

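Adrenal RNA of 2 wild-type and 2 V1a knockout samples was read on 4 arrays. Per the labels' protocols, the authors ran gcRMA (Bioconductor 3.14, per the submitters' processing notes), and deposited 1 log2 value for each probe set and array. GCRMA models background from probe sequence, normalizes and summarises probes, so weak readings gather at a floor and their differences can be compressed. The log2 scale was read from the values (2.30 to 14.9). The package version is not given in the sources used here.

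After 64 control probe sets were left out, 17228 of 45037 probe sets with at least 4 log2 units on at least 2 arrays entered limma 3.58.1 under R 4.3.3, with lmFit and eBayes on genotype alone, and p-values were adjusted over all of them by Benjamini-Hochberg. Residual degrees of freedom were 2, with 1.73 from the prior. SEs are limma's moderated ones. Symbols came from the platform annotation. All 34 tested members matched RefSeq (GRCm38.p6) by gene ID with the same symbol. One further probe set, which names Slc25a37 and another gene, was left out.

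Values on every array were given for the 5 members with the highest signal, members at an unadjusted p under 0.05, members without overlap at least 0.58 log2 units apart, and members whose tested probe sets differed in sign with at least 1 at 0.58 or more. Other listed genes of mitochondrial transport were named at an unadjusted p under 0.05, or else the 2 smallest. The cell type markers were not under this rule. Members and lists were chosen with earlier results of these data known. Those chosen after their values were seen are Slc25a20, Slc25a23, Slc25a25, Slc25a32, Cidea, Cox8b, Cox7a1, Alas2, Mtch2, Ucp3 and Timm22. The alternatives were other filters, normalizations, variance models and probe set choices, the replicate number as a block, and leaving out each array. The limma script was tested on simulated data.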

Additional observations from a re-analysis of the deposited data

How the results depend on the processing

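Under all 12 alternatives, 0 members passed the adjusted threshold in limma, and the smallest adjusted p of a member was 0.0721 to 1. Members at an unadjusted p under 0.05 numbered 1 on all arrays (Slc25a42), 2 without a filter (also Slc25a23), 2 with each gene's probe sets averaged (also Slc25a24), 2 with the replicate block (also Slc25a30), and 0 to 14 leaving out each array, with 14 without wild-type array 2 and 2 (Slc25a42 and Slc25a25) without wild-type array 1. Over all genes these shares were 5.06% on all arrays, 38.1% without wild-type array 2, 12.1% without wild-type array 1, and 0.821% and 1.1% without a knockout array. At the same threshold, 4.6% of all genes passed without a filter (4.55% of members) and 4.98% with probe sets averaged (5.88% of members). With the replicate block 3.71% of all genes and 5.88% of members passed. Leaving out each array moved the members lower in the knockout between 12 and 26 (35.3% to 76.5%, against 42.9% to 61.5% of all genes). It moved the median between -0.34 and 0.0442. The members without overlap ranged between 19 and 31 (55.9% to 91.2% of members, 56.0% to 85.6% of all genes). There 1 array against 2 overlaps less often by construction. The sign turned for Slc25a3 (-0.0144 to 0.0491 leaving out each array), for Slc25a4 (0.0295 with quantile normalization, 0.0174 with centring, 0.22 with the mean of its probe sets, -0.20 to 0.19 leaving out each array) and for Slc25a5 (0.0195, 0.0103 and 0.41 in the same order, 0.38 with plain probe sets, -0.16 to 0.13 leaving out each array). The causes were not tested. Plain probe sets gave no value for Slc25a3, Slc25a4, Slc25a37 and Slc25a39. The replicate numbers are not stated to pair samples, and deviations of arrays numbered 1 correlated at 0.154 across probe sets. With 1 array left in a genotype, its spread is taken from the other genotype. Readings near 4 log2 units, as in Slc25a32 and Slc25a13, may be compressed by the floor, which was not tested.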
